A study of Mus musculus with 2 samples.

Results

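Bone genes that Runx2 is known to control in osteoblasts were examined in plasmacytoid dendritic cells (pDCs), the dendritic cells specialised in type I interferon production. The set was 10 genes taken from knowledge of bone biology, and 9 of them had a probe set of their own among the 19938 named genes of the arrays. These were Sp7, Col1a1, Col1a2, Ibsp, Dmp1, Alpl, Mmp13, Tnfsf11 and Tnfrsf11b, each measured by 1 probe set. Spp1 (osteopontin) was not analysed here.

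The study had 2 samples of bone marrow pDCs, 1 of genotype Runx2-/- and 1 wild type. Both came from fetal liver chimeras, mice given fetal liver cells of that genotype to form their blood, at 2 months after reconstitution. Cells were sorted as CD11b-negative, BST2-positive and B220-positive, and labelling for the Affymetrix Mouse Gene 1.0 ST arrays started from 250 ng of total RNA a sample. The number of mice behind a sample is not stated, nor is what share of the sorted cells came from the host. With 1 array per genotype there is no spread between replicates, so differences are given without an error or a p-value. Runx2 itself was not analysed here, so the genotype labels were not checked on the targeted gene. The sort was checked on 11 pDC genes, Siglech, Tcf4 and Irf8 among them. Their log2 intensities ran between 10.20 and 13.55 on the Runx2-deficient array and between 10.76 and 13.48 on the wild-type array. Their log2 differences, Runx2-deficient minus wild-type, ran from -0.69 (Spib) to 0.13 (Ptprc). Of the 11, 7 were below 0, against 56.7% of all named genes, and 0 were 2-fold apart. Other blood cells also gave signal, more of it on the wild-type array. Of 12 neutrophil and precursor markers, 11 were at least 2-fold lower in Runx2-deficient pDCs, against 0.647% of all named genes. The granule gene Ngp was at 8.21 in log2 intensity in Runx2-deficient and 12.82 in wild-type pDCs. Lcn2, S100a8, S100a9, Ltf, Camp, Mpo, Elane, Mmp8 and Mmp9 were also 2-fold lower and above the signal limit defined below on at least 1 array. Of 7 erythroid markers, 4 were at least 2-fold lower, Slc4a1, Rhag, Car2 and Alas2, and the summed intensity of the 7 was 884 units in Runx2-deficient and 2468 units in wild-type pDCs. Of 7 endothelial markers, 2 (28.6%) were above that limit on both arrays, against 54.4% of all named genes, and these 2 differed in opposite directions. Cdh5 was 2-fold lower, at 288 units in Runx2-deficient and 764 units in wild-type pDCs. Kdr was higher, at 316 units in Runx2-deficient and 189 units in wild-type pDCs.

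Runx2 is a DNA-binding factor of the Runt family that is required for osteoblasts to form. In osteoblasts it acts with Sp7 (osterix), a zinc finger factor downstream of it, and turns on genes for the collagen matrix of bone, for the proteins that bind mineral to it, and for the signals by which osteoblasts steer osteoclasts. pDCs also express Runx2, although they make no bone. The comparison therefore asks which of the osteoblast targets give signal in pDCs, and whether their signal differs when Runx2 is missing.

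Of the 9 bone genes, 5 gave little signal in pDCs of either genotype, and none was 2-fold apart between genotypes. Since the deposited table has no detection call, the 1027 olfactory receptor genes of each array served as a yardstick for genes that sorted blood cells are not known to use. Their 95th percentile was 7.25 in log2 intensity on the Runx2-deficient array and 7.32 on the wild-type array. Col1a1, Col1a2, Alpl and Tnfsf11 lay above it on both arrays, and Tnfrsf11b, Sp7, Dmp1, Mmp13 and Ibsp lay below it on both. That is 44.4% of the 9 measured genes, against 54.4% of all named genes, so the bone genes were not set apart from other genes by this measure. The yardstick is also lenient, since 12 of 38 listed genes of liver, muscle, skin and other non-blood tissues passed it on both arrays. Not all 12 need be silent in these cells, since Cdh1 among them had 1137 units in Runx2-deficient pDCs and 1566 in wild-type. At the 99th percentile of olfactory receptor genes, Col1a1 and Tnfsf11 were above the limit on both arrays. Probe sets differ in how strongly they bind their target, so the order of levels between genes is not read here.

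**Figure D1:**
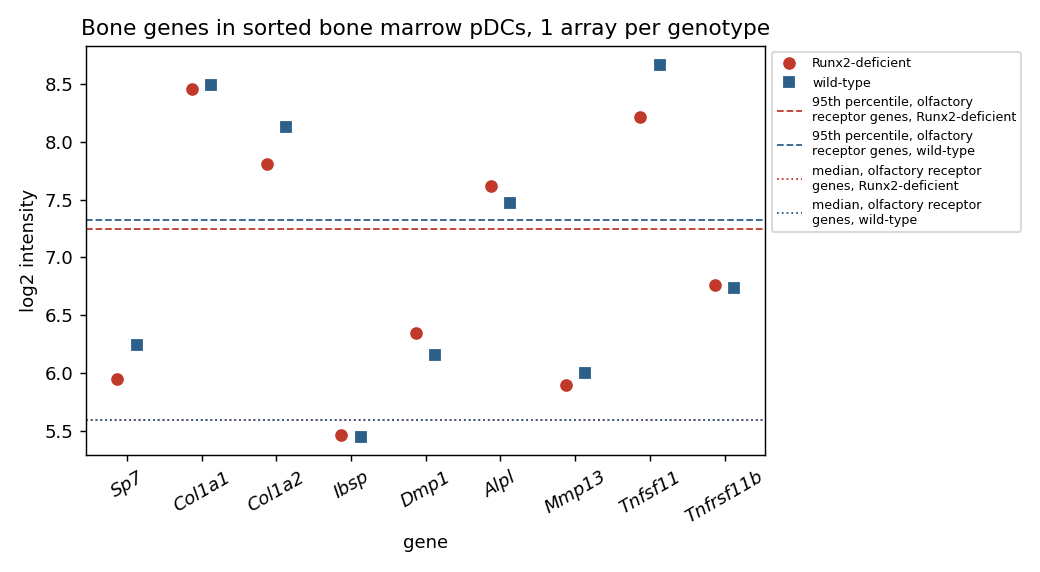
Log2 intensity of the 9 measured bone genes on the Runx2-deficient array (circles) and the wild-type array (squares), 1 value each, with the 95th percentile (dashed) and median (dotted) of olfactory receptor genes on each array. Col1a1, Col1a2, Alpl and Tnfsf11 lie above both dashed lines, and Ibsp lies below the olfactory receptor medians of 5.59.

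Of the 9 bone genes, 0 were 2-fold apart in either direction between Runx2-deficient and wild-type pDCs, and 0 were 1.5-fold apart. Over all named genes the shares were 0.436% for 2-fold higher and 0.647% for 2-fold lower, so a set of 9 genes with no such member is close to the background. At 1.5-fold the background shares were 1.73% higher and 2.22% lower. Log2 differences of the bone genes, Runx2-deficient minus wild-type, ran from -0.46 to 0.19 with a median of -0.04, and 5 of 9 were below 0. Over all named genes the median was -0.03, the central 95% ran from -0.56 to 0.50, and 56.7% were below 0.

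**Figure D2:**
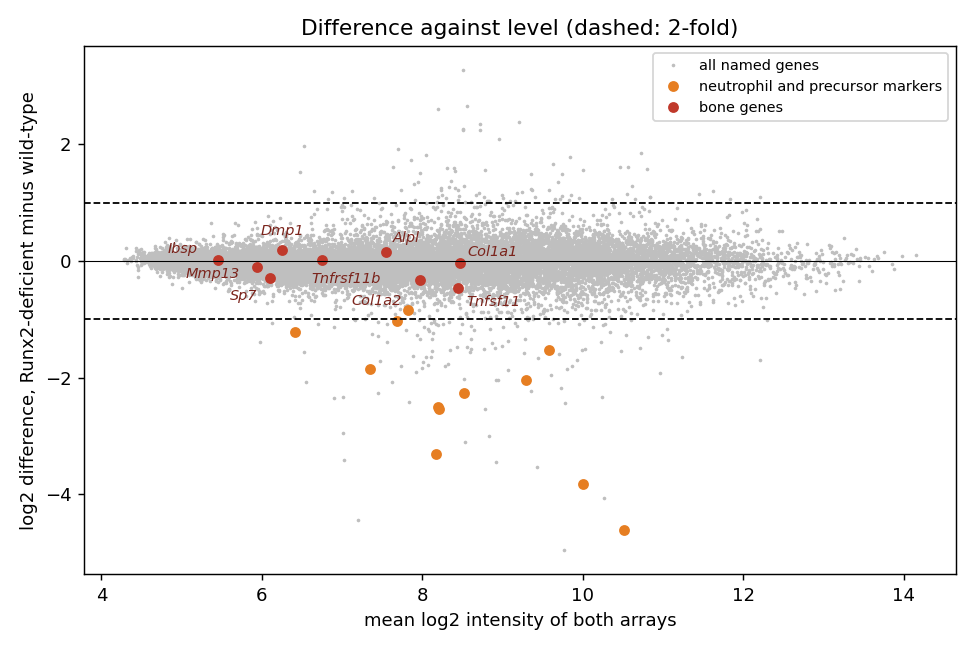
Log2 difference, Runx2-deficient minus wild-type, against the mean log2 intensity of both arrays for 19938 named genes (grey), the 9 bone genes (red, named) and 12 neutrophil and precursor markers (orange). The bone genes lie between -0.46 and 0.19, inside the dashed 2-fold lines, while 11 of the 12 neutrophil and precursor markers lie below the lower line.

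Sp7, the transcription factor that commits cells to the osteoblast fate together with Runx2, had 61.8 intensity units in Runx2-deficient pDCs and 75.8 in wild-type pDCs. Its log2 values, 5.95 in the Runx2-deficient sample and 6.24 in wild-type, were below the olfactory receptor limit of their arrays, and the log2 difference was -0.29. Of 22 measured osteoblast regulators and signal receptors, 11 (50%) were above the limit on both arrays, against 54.4% of all named genes. Of the 22, 0 were 2-fold apart. The median difference was -0.12, and 19 of 22 were below 0, against 56.7% of all named genes. Vdr, the vitamin D receptor gene, chosen here after its value was seen, was furthest from 0, with 96.5 units in Runx2-deficient pDCs and 152 in wild-type pDCs, both below the limit, and a log2 difference of -0.66. Atf4, a stress-responsive factor that osteoblasts need for matrix synthesis, was at 734 units in Runx2-deficient pDCs and 619 in wild-type. Lrp5, a Wnt co-receptor that sets bone mass, was at 299 and 363 units in Runx2-deficient and wild-type pDCs. Cbfb, the partner that stabilises Runx factors on DNA, was at 1030 units in Runx2-deficient pDCs and 1063 in wild-type.

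The 2 chains of type I collagen, the main protein of bone matrix, were both above the limit. Col1a1 had 351 units in Runx2-deficient pDCs and 360 in wild-type pDCs. Its log2 difference was -0.04, and it was 0.04 after each array was centred on its median. Col1a2 had 225 units in Runx2-deficient pDCs and 280 in wild-type pDCs, a log2 difference of -0.32. At or below that value lay 9.62% of all named genes.

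Markers of marrow stromal cells, which make collagen, were dim on both arrays. Of 12 such genes only Col3a1, another fibrillar collagen, passed the limit, at 172 units in Runx2-deficient pDCs and 201 in wild-type. That is 8.33% above the limit on both arrays, against 54.4% of all named genes. Cxcl12, the chemokine of marrow stroma, was at 6.63 in log2 intensity in the Runx2-deficient sample and at 7.04 in wild-type. Lepr, the leptin receptor gene of marrow stroma, had 42.5 units in Runx2-deficient pDCs and 48.7 in wild-type pDCs. The summed intensity of the 12 genes was 958 units in Runx2-deficient pDCs and 1065 in wild-type, and 11 of the 12 differences were below 0, with a median of -0.11. Over all named genes 56.7% were below 0, and 11 of the 12 stromal genes were below the limit on both arrays. Whether a few stromal cells carry part of the collagen signal was not tested, and fewer cells of a type and less RNA per cell cannot be told apart in bulk samples.

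Of 13 measured genes that process collagen, 10 (76.9%) were above the limit on both arrays, against 54.4% of all named genes. Of the 13, 0 were 2-fold apart, and the median difference was -0.03. P4ha1, a catalytic chain of the prolyl hydroxylase that stabilises the collagen helix, stood at 1161 units in Runx2-deficient pDCs and 711 in wild-type pDCs, a log2 difference of 0.71. Its partner chain P4hb, which is also a general disulfide isomerase of the secretory pathway, was at 2628 and 2408 units in Runx2-deficient and wild-type pDCs. Serpinh1, the collagen chaperone HSP47, was at 181 units in Runx2-deficient pDCs and 213 in wild-type.

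Ibsp and Dmp1 encode acidic proteins of the SIBLING family, which nucleate and organise bone mineral. Their genes lie in 1 cluster, where Dspp, Dmp1, Ibsp, Mepe and Spp1 follow one another with 0 other protein-coding genes between them in the RefSeq gene table. Ibsp (bone sialoprotein) had 44.2 units in Runx2-deficient pDCs and 43.6 in wild-type pDCs, both below the median olfactory receptor gene. Dmp1, a matrix protein of osteocytes, had 81.4 and 71.2 units in Runx2-deficient and wild-type pDCs, which is below the olfactory receptor limit on each array. The cluster's Mepe had 37.2 units in Runx2-deficient pDCs and 39.6 in wild-type, and Dspp, a dentin matrix gene, had 135 in the Runx2-deficient sample and 133 in wild-type. All 4 measured genes of the cluster were thus below the limit on both arrays, with differences between -0.09 and 0.19.

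Receptors for osteopontin, the product of the unmeasured cluster gene Spp1, were measured as well. Of 8 receptor genes, 6 passed the limit on both arrays, against 54.4% of all named genes, and 0 were 2-fold apart, with a median difference of 0.03. Cd44, a receptor for hyaluronan and osteopontin, had 3334 units in Runx2-deficient pDCs and 3207 in wild-type. Itga4, an integrin chain that binds VCAM1 and osteopontin, had 2490 units in Runx2-deficient pDCs and 3739 in wild-type pDCs, a log2 difference of -0.59. Itgb1 differed by -0.47 and Itgb3 by 0.38 in log2 units.

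Alpl, the tissue-nonspecific alkaline phosphatase that clears the mineralisation inhibitor pyrophosphate, was just above the limit. It had 196 units in Runx2-deficient pDCs and 177 in wild-type pDCs, a log2 difference of 0.15. Its log2 values exceeded the limit by 0.37 on the Runx2-deficient array and by 0.15 on the wild-type array, and it was below the limit on both when the 99th percentile was used. Of the genes that handle pyrophosphate and phosphate with it, Ank, a pyrophosphate transporter, had 297 and 315 units and Slc20a1, a phosphate transporter, 923 and 851 units in Runx2-deficient and wild-type pDCs. Phospho1, a phosphatase of mineralising vesicles, was below the limit on both arrays, with 114 units in Runx2-deficient pDCs and 117 in wild-type.

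Mmp13, the collagenase of osteoblasts and hypertrophic cartilage, gave 59.5 units in Runx2-deficient pDCs and 63.8 in wild-type pDCs. Both values were under the limit. Of 7 related metalloproteinases, 0 were 2-fold or more above wild-type and 2 were 2-fold or more below it, Mmp8 and Mmp9. Over all named genes 0.436% were 2-fold higher and 0.647% were 2-fold lower. Mmp8, the neutrophil collagenase, had 85.2 units in Runx2-deficient pDCs and 309 in wild-type, and Mmp9, the gelatinase of neutrophils and osteoclasts, had 144 in Runx2-deficient pDCs and 295 in wild-type. Both are also among 12 neutrophil and precursor markers, of which 11 were at least 2-fold lower and whose summed intensity was 2288 units in the Runx2-deficient sample against 17811 in wild-type. The part of such cells in the Mmp8 and Mmp9 values was not tested.

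Tnfsf11 and Tnfrsf11b encode RANKL, the ligand that drives osteoclast formation, and osteoprotegerin, the soluble decoy receptor that blocks it. Tnfsf11 had 297 units in Runx2-deficient pDCs and 407 in wild-type pDCs, and was above the limit on each array. Its log2 difference of -0.46 was the furthest from 0 of the 9 bone genes and equals a 1.37-fold higher signal in wild-type. At or below that difference lay 4.27% of all named genes, and 6.55% of the genes above the olfactory receptor limit on at least 1 array. Tnfrsf11b had 109 units in Runx2-deficient pDCs and 107 in wild-type pDCs, below the limit on both arrays, with a log2 difference of 0.03.

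RANKL is also made by activated T cells and by stromal cells. Of the 12 stromal markers described above, 11 were below the limit on both arrays, and their summed intensity was 958 units in Runx2-deficient and 1065 in wild-type pDCs. Of 8 measured T cell genes, 4 differences were above and 4 below 0, with a median of 0.01 and a summed intensity of 2480 units in the Runx2-deficient sample against 1957 in wild-type. Lat, a signalling adaptor of T cells and other blood cells, was furthest from 0, with 615 units in Runx2-deficient pDCs and 312 in wild-type pDCs, a log2 difference of 0.98. Cd28, a costimulatory receptor, differed by 0.37 and Cd247, a chain of the T cell receptor complex, by 0.28. Cd247 was above the limit on the Runx2-deficient array only. The defining T cell genes Cd3d and Cd3g were below the limit on both arrays. Cd3e had 149 units in Runx2-deficient pDCs and 189 in wild-type pDCs, a log2 difference of -0.34, and was above the limit on the wild-type array only. Bcl11b, above the limit on both arrays, differed by -0.12. The part of T cells, stromal cells, B cells or other cells in the Tnfsf11 values was not tested.

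Genes of the RANKL receptor, its pathway and osteoclasts were measured as well. Of these 15 genes, 8 were above the limit on both arrays. That is 53.3%, close to the 54.4% of all named genes. Tnfrsf11a, which encodes the RANKL receptor RANK, had 373 units in Runx2-deficient pDCs and 324 in wild-type pDCs, and was above the limit on both arrays. Traf6, the adaptor that RANK shares with the Toll-like receptors, had 946 units in Runx2-deficient pDCs and 806 in wild-type pDCs. Nfatc1, the factor that drives osteoclast genes, had 1426 units in Runx2-deficient pDCs and 1492 in wild-type. Tnfsf10, which encodes TRAIL, a second ligand of osteoprotegerin, had 437 units in Runx2-deficient pDCs and 247 in wild-type, a log2 difference of 0.82. Acp5, the tartrate-resistant acid phosphatase of osteoclasts and macrophages, differed the other way, with 196 and 299 units in Runx2-deficient and wild-type pDCs. The osteoclast genes Ctsk, Calcr, Dcstamp and Atp6v0d2 were below the limit on both arrays. Ocstamp, a gene of osteoclast fusion, was above it on both, at 198 units on each. Csf1r, also a listed macrophage marker, was above it on the Runx2-deficient array only, with 233 units there and 150 in wild-type pDCs. Of 15 genes in this list, 0 were 2-fold apart, and the median difference was 0.01. On the same arrays 9 of 10 macrophage markers had differences above 0, with a median of 0.42. C1qb, a complement gene of macrophages, was furthest from 0, with 456 units in Runx2-deficient pDCs and 246 in wild-type pDCs. Their summed intensity was 6127 units in Runx2-deficient pDCs and 6948 in wild-type, of which Cd68 alone gave 4252 in the Runx2-deficient sample and 5626 in wild-type. Their part in the values of Acp5 and the other osteoclast genes was not tested.

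**Figure D3:**
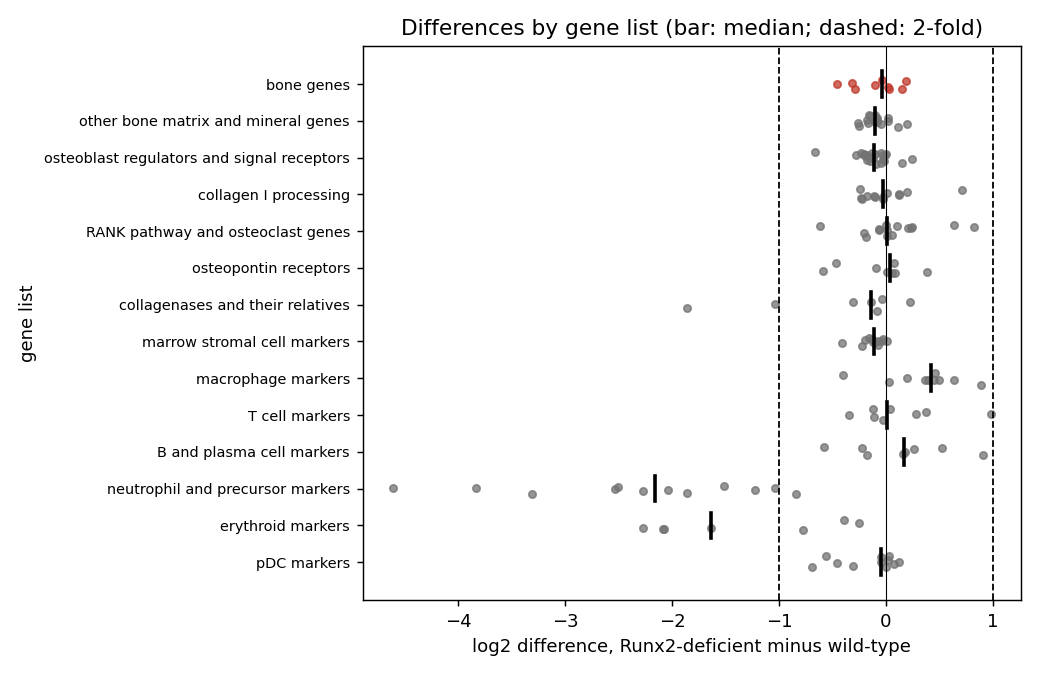
Log2 differences, Runx2-deficient minus wild-type, of each measured gene (points) in the bone genes (red), related lists and cell type markers (grey), with each list's median as a bar and 2-fold as dashed lines. The bone genes have a median of -0.04, while the neutrophil and erythroid markers have medians of -2.15 and -1.64.

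Across the 7 related lists together, which cover matrix, regulators, collagen processing, collagenases, osteopontin receptors, the RANK pathway and phosphatases, 86 different genes were measured. Of these, 0 were 2-fold or more above wild-type in Runx2-deficient pDCs, while 2 were 2-fold or more below it, Mmp8 and Mmp9. Over all named genes the shares were 0.436% for 2-fold higher and 0.647% for 2-fold lower. The median difference of the 86 genes was -0.07. Of 17 measured bone matrix and mineral genes other than the targets, 6 (35.3%) were above the limit on both arrays, against 54.4% of all named genes. Sparc (osteonectin), an abundant glycoprotein of bone, was below it on both, with 110 units in Runx2-deficient pDCs and 130 in wild-type pDCs.

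**Figure D4:**
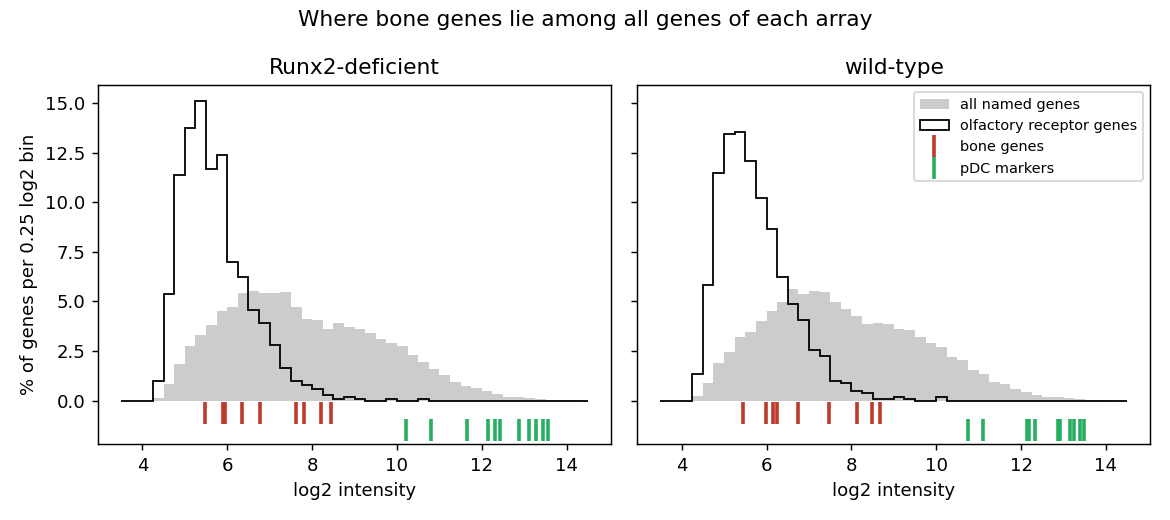
Share of genes per 0.25 log2 bin of intensity on the Runx2-deficient array (left) and the wild-type array (right), for all named genes (grey) and 1027 olfactory receptor genes (line), with ticks for the 9 bone genes (red) and 11 pDC markers (green). The bone genes lie between 5.46 and 8.46 on the Runx2-deficient array and between 5.45 and 8.67 on the wild-type array.

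The regions before the transcription starts were searched for the core motif that Runx factors bind, written TGTGGT or TGCGGT and searched on both strands; these motifs do not overlap in the windows below. RefSeq promoter windows (GRCm38.p6) of 250 bases were at hand for 6 of the measured bone genes, in 8 windows. The motif was in 2 of these 8 windows, 1 of Mmp13 and 1 of Dmp1, and each time as TGTGGT on the opposite strand, read as ACCACA. Of 32851 such windows of all genes, 14% held TGTGGT, 5.1% TGCGGT and 18.6% either, so 2 of 8 is not far from the background. The windows of Mmp13 and Dmp1 are shown because they hold the motif, in capitals, 118 and 164 bases before the start, and that of Tnfsf11 because it had the difference furthest from 0 and holds neither motif. Dmp1 has 2 annotated starts, and the window shown lies before the later one, inside the gene; the window before its first start held neither motif. The 3 windows shown are at chr9:7272264-7272513 (plus strand), chr5:104202367-104202616 (plus strand) and chr14:78308044-78308293 (minus strand), each read 5′ to 3′ towards the gene.
Mmp13: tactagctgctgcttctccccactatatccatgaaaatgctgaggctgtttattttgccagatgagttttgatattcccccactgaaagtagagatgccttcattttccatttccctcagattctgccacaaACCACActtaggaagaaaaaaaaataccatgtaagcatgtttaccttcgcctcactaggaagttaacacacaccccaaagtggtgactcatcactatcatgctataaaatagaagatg
Dmp1: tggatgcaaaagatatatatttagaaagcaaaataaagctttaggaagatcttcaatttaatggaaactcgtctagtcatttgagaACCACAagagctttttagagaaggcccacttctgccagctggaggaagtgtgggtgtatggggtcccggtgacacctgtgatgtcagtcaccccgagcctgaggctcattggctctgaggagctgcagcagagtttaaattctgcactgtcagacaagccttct
Tnfsf11: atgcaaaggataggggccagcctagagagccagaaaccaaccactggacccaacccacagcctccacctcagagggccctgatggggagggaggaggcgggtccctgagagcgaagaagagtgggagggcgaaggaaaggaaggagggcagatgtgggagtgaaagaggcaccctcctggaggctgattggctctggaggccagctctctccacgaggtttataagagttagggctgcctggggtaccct
Both genes with the motif, Mmp13 and Dmp1, were below the olfactory receptor limit on both arrays. The windows of Tnfsf11, Col1a2 and Alpl, all above it, held neither motif. The window of Ibsp, which was below the limit on both arrays, also held neither motif. Low signal was thus not limited to genes with the motif, and only 6 genes had windows. A match is a stretch of letters and not a measured binding site, and its absence from 250 bases says nothing about sites elsewhere.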

How the data were processed

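The data were 2 arrays, 1 per genotype, with 35556 probe sets. Values in the deposited table are intensities on a linear scale (15.3 to 20364). The authors made them with RMA, per the submitters' processing notes. RMA corrects background, normalises and summarises probes, and compresses the differences of dim probe sets. Neither the software nor its version or annotation is given in the sources used here, and whether both arrays were normalised together is not stated. Median intensity was 181.7 on the Runx2-deficient array and 182.9 on the wild-type array. The number of arrays limits the precision.

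Probe sets were named from the platform annotation where they had exactly 1 symbol (21789; 1621 had several, 12146 none; 21698 matched the RefSeq gene table). For 999 genes with several probe sets, the one with the highest mean was used. Values were taken to log2 and wild-type was subtracted from Runx2-deficient. Without replicates no test was made; 2-fold is a description of size. Functions were checked on simulated data. The genes, lists and settings were chosen with earlier results of these data known. From other lists, genes 2-fold apart and above the olfactory receptor limit on at least 1 array were named; up to 3 others above it in each direction, and partners of a bone gene, could be named, and not each of these is printed. Dim list members were picked after their values were seen. Alternatives were median centring, a loess correction (span 0.3), 32 units added before log2, the mean of probe sets, a 1.5-fold threshold and other signal limits. Scripts ran in Python 3.11.15 with pandas 2.3.3 and numpy 2.4.6, loess came from statsmodels 0.14.6, and figures from matplotlib 3.10.9.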

Additional observations from a re-analysis of the deposited data

How the results depend on the processing

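Under median centring, loess correction, 32 added units and the mean of probe sets, 35 of 36 values of single bone genes kept their sign, the exception being Col1a1 after centring (0.04 against -0.04), and the largest move was 0.09 in log2 units. Averaging probe sets could change none of the 9 genes, which have 1 each. None reached 2-fold, and Tnfsf11 ran from -0.46 to -0.38. The bone gene median was 0.04 after centring, -0.01 after loess correction and -0.18 over the 4 genes above the olfactory receptor limit. With the 99th percentile of olfactory receptor genes, 2 bone genes were above the limit on the Runx2-deficient array and 2 on the wild-type array, in place of 4 each, and with the 95th percentile of genes of non-blood tissues 2 on the Runx2-deficient array and 3 on the wild-type array. Over all named genes a 1.5-fold threshold gave 345 higher and 442 lower genes, in place of 87 and 129. No paired analysis was possible because each genotype has 1 array. Signals near the limit cannot tell low expression from none.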

Other observations

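The values of 255 of 35556 probe sets were identical on both arrays to the last deposited digit. Among listed genes these included Gli2, a Hedgehog pathway factor, at 116 units on each array, and Ocstamp, a gene of osteoclast fusion, at 198 units on each. A log2 difference of 0 for these genes is therefore a value of the deposited table, and what made them equal was not tested.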
